A study of Homo sapiens with 6 samples.

Results

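A total of 5374 of 81216 regions of open chromatin in A549 cells had a DNase-seq peak in every vehicle-treated library but in only 1 or 2 of the 3 dexamethasone-treated libraries. In DNase-seq, DNase I is used to cut chromatin where it is accessible and the fragment ends are sequenced. A549 is a human lung adenocarcinoma line. Cells received 100 nM dexamethasone or 0.02% ethanol, its solvent, for 1 h, with 3 libraries each. The cells of both groups carried no other treatment in the labels, which do not say whether libraries came from separate cultures, so their spread may be technical. Regions were made by merging all peaks that shared at least 1 bp (hg19), and a library called a region when at least 1 of its peaks lay there. The members were therefore chosen by these calls, which are measured values. Counts and strengths in the same lists describe the class and do not test it. The mirror class, used for comparison, had a peak in 3 of 3 dexamethasone and in 1 or 2 of 3 ethanol libraries and held 3582 regions.

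Dexamethasone is a synthetic agonist of the glucocorticoid receptor, a transcription factor that moves from the cytoplasm to the nucleus when it binds hormone. The receptor binds DNA mostly where chromatin is already accessible, opens further sites together with remodelling complexes, and lowers the activity of other sites, many of them bound by AP-1 or NF-kB. In peak data, a site that closes in part and a site whose signal lies near the caller's threshold both appear as a peak that is present in some libraries and absent from others. An absent peak does not show closed chromatin.

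The 6 lists held between 58281 and 61344 peaks, and the deposited files give no read counts, so sequencing depth is unknown. The members made up 6.62% of all merged regions and the mirror class 4.41%, a ratio of 1.5. Of the members, 3963 (73.7%) were called in 2 of 3 dexamethasone libraries and 1411 (26.3%) in 1 of 3. The mirror class was divided in much the same proportions, with 2583 (72.1%) and 999 (27.9%).

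The dexamethasone libraries contributed unequally to the missing peaks. Dexamethasone replicate 3 lacked a peak in 2588 members (48.2%), replicate 1 in 2548 (47.4%) and replicate 2, the longest dexamethasone list, in 1649 (30.7%). Replicate 3 was the single missing library in 1689 members, replicate 1 in 1520 and replicate 2 in 754. Members with a lone dexamethasone peak had it in replicate 2 (516), replicate 3 (512) or replicate 1 (383). In the mirror class it was ethanol replicate 1, the shortest of all lists, that lacked a peak most often (1826 regions, 51.0%), ahead of replicate 3 (1386) and replicate 2 (1369). In both classes the longest list of the treatment was not the one missing most often.

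**Figure D1:**
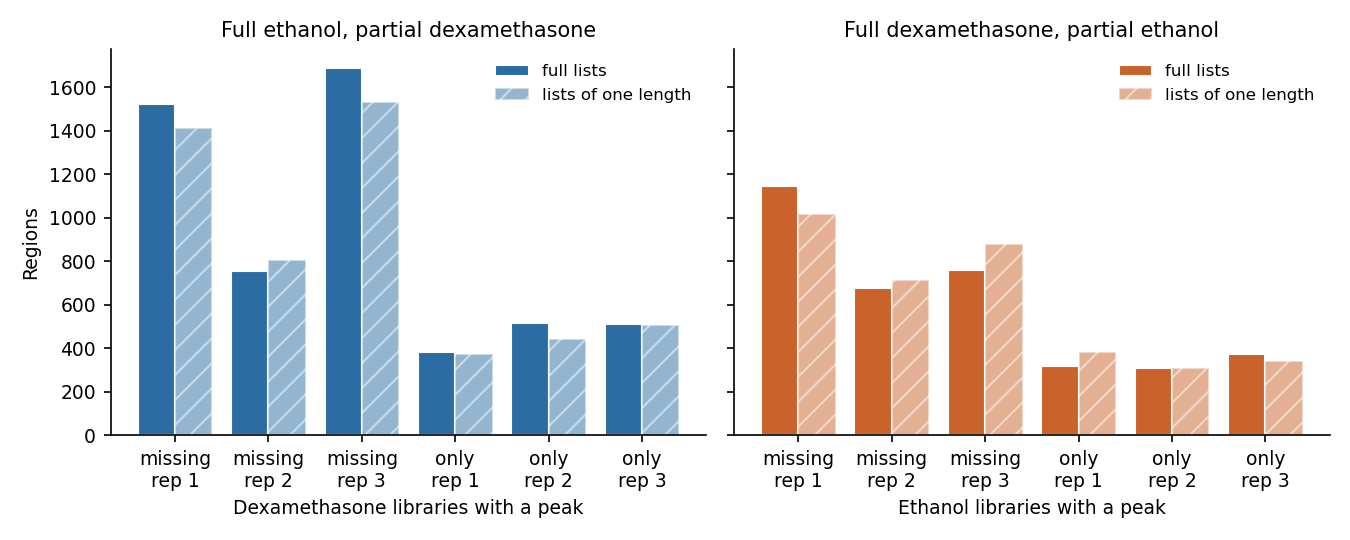
Number of regions by which libraries of the partly called treatment had a peak, for members (left) and the mirror class (right), with full lists (solid) and lists of one length (hatched). Members missing from dexamethasone replicate 3 alone (1689) or replicate 1 alone (1520) are the tallest bars of the left panel, and replicate 2 alone (754) the lowest of its first 3 groups.

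List length adds calls, so all lists were also cut to the 58281 peaks with the highest −log10 q. The members then numbered 5073 (6.44% of 78726 regions) and the mirror class 3639 (4.62%), so that the ratio fell from 1.5 to 1.39. Dexamethasone replicates 1 and 3 still lacked more of these peaks (2362 and 2349) than replicate 2 did (1686). Stricter lists kept the same order of the classes. With the 40000 strongest peaks of each list there were 3270 members against 2566 mirror regions, a ratio of 1.27, and with the 10000 strongest 942 against 622, a ratio of 1.51. Regions called in one treatment alone had the opposite order at each of these lengths. At 58281 peaks 483 regions had a peak in 3 ethanol and no dexamethasone library and 901 the reverse, and at 10000 peaks 51 against 69. With full lists, the 45846 regions called in 3 of 3 ethanol libraries were called in 2, 1 and 0 dexamethasone libraries in 8.64%, 3.08% and 1.17% of cases. For the 44413 regions called in 3 of 3 dexamethasone libraries, the corresponding shares in ethanol were 5.82%, 2.25% and 2.02%. In both treatments partial calls outnumbered complete absence. Between them, the share of partial calls was higher among regions full in ethanol, and the share of absence was higher among regions full in dexamethasone. These shares are counts over 6 lists and were not tested.

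**Figure D2:**
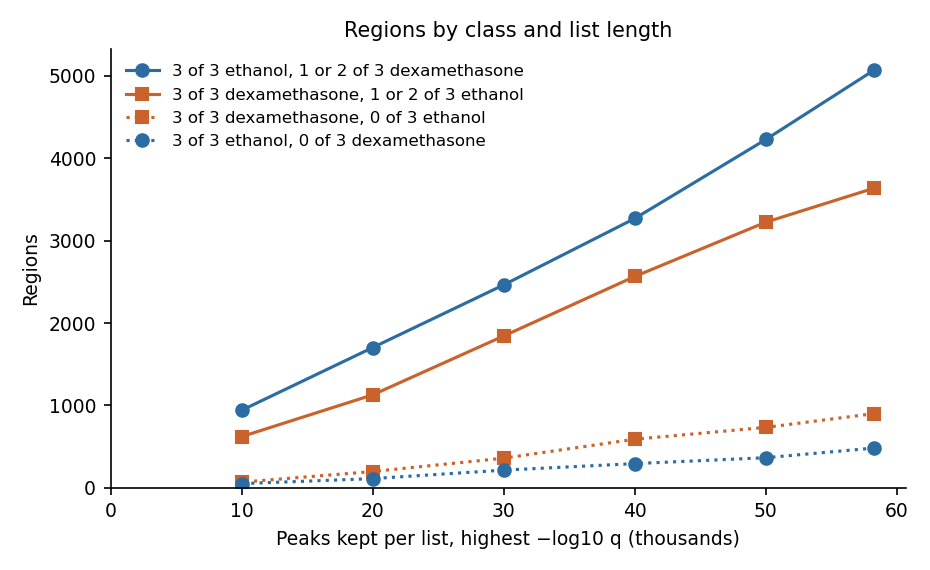
Number of regions per class (vertical axis) when every list is cut to the same number of peaks (horizontal axis). Solid lines are members (blue) and mirror class (orange), dotted lines the regions called in a single treatment. The blue solid line runs above the orange one at all 6 lengths, from 942 against 622 to 5073 against 3639 regions, and the dotted lines have the reverse order.

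The surplus of members over mirror regions differed with the libraries used. One ethanol and one dexamethasone library were left out together, so that both treatments kept 2 and partial meant 1 of 2. In 8 of these 9 cases, which share libraries, members outnumbered the mirror class. The lowest ratio of the 8 was 1.05, without ethanol replicate 2 and dexamethasone replicate 1. The highest was 2.15 (6129 against 2847, without ethanol replicate 1 and dexamethasone replicate 2). Without ethanol replicate 2 and dexamethasone replicate 3 the order reversed, with 4040 members and 4131 mirror regions. Equally numbered libraries deviated together from their group means. With the numbers taken as a block, regions with a peak in ethanol and none in dexamethasone in 1 or 2 of the 3 pairs, and no pair the other way, numbered 17029 against 14529 in the reverse direction, a ratio of 1.17. This blocked rule does not require full calls in ethanol, so its counts are larger by construction.

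Members were weak to intermediate sites, as were mirror regions. Their median fold enrichment, the authors' value at the summit over the background of the same library, was 5.59, 5.75 and 5.73 in ethanol replicates 1 to 3. In the dexamethasone libraries that called them it was 5.52, 5.68 and 5.64. The dexamethasone medians cover only the 2826, 3725 and 2786 members with a peak in that library, so weaker or absent signal does not enter them and they cannot be set against the ethanol medians of all members. Single peaks of members reached from 2.13-fold, in ethanol replicate 2, to 14.0-fold, in dexamethasone replicate 2. Mirror regions had medians of 5.61, 5.75 and 5.50 in dexamethasone replicates 1 to 3. Regions called in all 6 libraries had medians between 8.23 and 8.86. Members and mirror regions must lack a call, so their lower strength follows in part from the rule. On the scale of strength used here, the percentile of a peak's −log10 q within its own list, members had a median of 28.4 over the ethanol lists. The mirror class had 27.5 over the dexamethasone lists. Members called in 1 of 3 dexamethasone libraries lay lower (23.9) than those called in 2 of 3 (29.8). The weakest ethanol peak of a member had a median −log10 q of 8.88 and a lowest value of 3.08. Just outside the rule, the 5817 regions with 2 of 3 ethanol and 1 or 2 of 3 dexamethasone peaks had a weakest ethanol peak at a median of 8.51 and at 2.61 at the lowest. At the other edge, the weakest dexamethasone peak of regions called in all 6 libraries had a median of 23.2, against 9.75 for the weakest called dexamethasone peak of members. A minimum tends to fall as more peaks enter it. The first pair of minima ran over 3 and 2 peaks and the second over 3 and over 1 or 2, so neither is like for like.

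Partial calls became rarer as peaks grew stronger, at different rates in the 2 classes. Among regions called in 3 of 3 ethanol libraries with a mean percentile between 10 and 20, 1067 of 2112 (50.5%) were members. The corresponding share of regions full in dexamethasone was 725 of 1909 (38.0%). Between 40 and 50 the shares were 12.6% and 7.53%. Above 60 the order changed: 29 members and 76 mirror regions lay there, and the highest mean percentile was 71.0 for a member and 87.8 for a mirror region. Leaving out one library of each treatment gave 12 to 87 members and 50 to 74 mirror regions above 60, with fewer members in 7 of 9 cases. The exceptions lacked ethanol replicate 1 together with dexamethasone replicate 2 (87 against 54) or replicate 3 (60 against 52). Above 50 the classes held 249 and 228 regions. This count was 142 against 193 without both libraries numbered 3, and 410 against 153 without ethanol replicate 1 and dexamethasone replicate 2, and members were fewer in 4 of 9 cases.

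**Figure D3:**
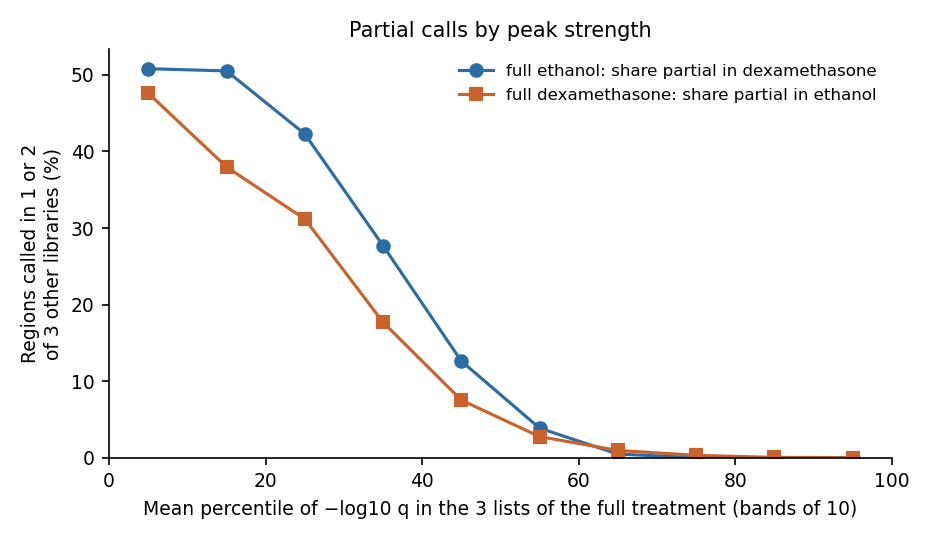
Share of fully called regions that were called in 1 or 2 of 3 libraries of the other treatment (vertical axis, %), by mean percentile of −log10 q in the fully called treatment (horizontal axis, bands of 10). The ethanol curve (blue) lies above the dexamethasone curve (orange) up to the band from 50 to 60 (3.88 against 2.77%) and below it from 60 to 70 (0.492 against 0.967%).

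Large differences within a region were also fewer among members. The mean ethanol percentile exceeded the mean percentile of the called dexamethasone peaks in 3050 members (56.8%), by a median of 1.87 points over all members. In the mirror class the dexamethasone side was higher in 56.8% as well, by a median of 2.30 points. In both classes only called peaks enter the partial side, so weaker or absent signal is left out of these differences. A lead of at least 30 points was found in 65 members and in 211 mirror regions, and one of that size the other way in 29 and 30, with lowest differences of −40.2 and −42.2 points. With one library of each treatment left out the counts of leads on the fully called side ranged from 92 to 205 and from 159 to 244, and members were fewer in 7 of 9 cases. The exceptions lacked ethanol replicate 1 together with dexamethasone replicate 2 (184 against 159) or replicate 3 (205 against 159). The largest lead was 52.3 points for a member and 78.7 for a mirror region.

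The leading members called in a single dexamethasone library had 5.68-fold to 9.13-fold mean enrichment in ethanol. The 10 highest by mean ethanol percentile, from 50.3 to 60.1, are described first. Folds are given as each list has them, and choosing sites for high ethanol values favours lower dexamethasone values. In each of these 10 the lone dexamethasone fold was below all 3 ethanol folds, and the lone peak was in dexamethasone replicate 2 for 6 of them, in replicate 1 for 3 and in replicate 3 for 1. The highest lay at chr8:22922030-22922349, with ethanol folds of 4.84, 6.56 and 8.15 in replicates 1 to 3 and 4.46 in dexamethasone replicate 3. Its ethanol values were spread widely, and the lowest was close to the dexamethasone value. The site at chr10:49816236-49816531 was more uniform, with 6.70, 6.60 and 6.38 in ethanol and 4.28 in dexamethasone replicate 2.

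The largest lead of all members was at chr16:76944834-76945160. Ethanol folds there were 8.42, 8.77 and 10.2 (9.13 ± 0.95, SD, n = 3), and the single dexamethasone peak, in replicate 2, had 4.29-fold enrichment and stood at the percentile 1.27 of its list. Dexamethasone replicates 1 and 3 had no peak within 35.6 kb. A similar site at chr17:63151342-63151656 had ethanol folds of 6.54, 6.73 and 7.57 against 4.04 in dexamethasone replicate 1, at percentile 5.52. At chr7:68248707-68249098 the ethanol folds were 7.38, 8.60 and 9.01 and the fold in dexamethasone replicate 2 was 5.82. These 3 sites showed a dexamethasone peak below the ethanol range and no peak in the other dexamethasone libraries.

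Other sites of this group differed less between treatments where a peak was called. At chr8:80935869-80936160 the ethanol folds were 9.04, 8.77 and 8.60 and dexamethasone replicate 1 had 7.69. At chr7:73441206-73441479 they were 6.02, 5.87 and 5.25 against 4.72 in dexamethasone replicate 2. At chr12:63126834-63127094, where the ethanol folds were 6.63, 6.16 and 5.74 against 5.19 in dexamethasone replicate 2, the libraries without a peak had one 0.546 and 0.562 kb away. Beside these, the group held chrX:129243064-129243355 (5.68 ± 0.41-fold in ethanol, SD, n = 3) and chr1:206654583-206654891 (5.94 ± 0.63-fold, SD, n = 3), with lone dexamethasone folds of 4.39 and 4.70.

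Members called in 2 of 3 dexamethasone libraries reached higher strengths. The 10 highest had mean ethanol percentiles from 64.6 to 71.0, all had a peak in dexamethasone replicate 2, and the missing library was replicate 1 for 5 and replicate 3 for 5. In 4 of the 10 both dexamethasone folds were below all ethanol folds. The first, at chr11:85555431-85555864, had ethanol folds of 10.7, 13.9 and 12.2 and dexamethasone folds of 10.3 and 8.33 in replicates 2 and 3. Dexamethasone replicate 1 had no peak within 9.77 kb. At chr1:117396307-117396757 the ethanol folds were 10.3, 10.8 and 10.7 against 8.03 and 7.35 in dexamethasone replicates 1 and 2. At both sites the called dexamethasone folds were below the ethanol folds.

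Singled out after the values were seen, the next largest leads were at chr21:37843526-37844050 and chr2:196478643-196478974. At the first, ethanol folds of 7.45, 10.9 and 8.98 stood against 4.60 and 5.56 in dexamethasone replicates 2 and 3. At the second, 7.45, 9.18 and 11.7 stood against 5.28 and 5.43 in dexamethasone replicates 1 and 3. The choice by the size of the lead sets the direction at these sites.

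The same order of folds was seen at chr2:88152446-88152814 and chr6:34131536-34131909. The first had ethanol folds of 11.8, 11.1 and 11.4 against 8.89 and 9.27 in dexamethasone replicates 2 and 3, and had no 6-library region closer than 149 kb. The second had 13.3, 11.2 and 10.6 against 8.19 and 9.19 in dexamethasone replicates 1 and 2. In the remaining 6 the treatments overlapped. At chr1:1273130-1273438 the ethanol folds of 7.99, 8.68 and 8.11 enclosed the dexamethasone value of 8.31 in replicate 1, with 7.74 in replicate 2. At chr17:78954822-78955444 the highest fold of all, 7.68, was in dexamethasone replicate 2, while replicate 3 had no peak within 3.17 kb. Absence from 1 library was found beside called dexamethasone peaks as high as those in ethanol.

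The overlapping sites also included chr7:130857872-130858207 (9.71 ± 0.51-fold in ethanol, SD, n = 3), chr4:170284498-170284801 (11.7 ± 1.9-fold), chr22:31518750-31519081 (8.33 ± 1.1-fold) and chr16:67311198-67311518 (6.22 ± 0.68-fold). For comparison, the leading mirror region called in 1 ethanol library, chr15:90355296-90355862, had dexamethasone folds of 9.43, 7.74 and 9.04 against 3.24 in ethanol replicate 1. The next, chr16:1985330-1985679, had 12.0, 12.5 and 12.6 against 4.96 in ethanol replicate 2. The 5 leading mirror regions had mean dexamethasone percentiles from 75.4 to 87.8, and no member reached 75.4.

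Calls were also compared in libraries left out when regions were chosen, although the regions themselves were merged from the peaks of all libraries. Each equally numbered pair of libraries was held out in turn. Regions called in both other ethanol and in 1 of the 2 other dexamethasone libraries were then looked up in the held-out pair. Such a region with a peak in the held-out ethanol library was a member by definition. The shares, and the tests on them, are therefore not independent of the rule. They describe the classes and give no separate support for them. The regions looked up had a peak in held-out ethanol replicates 1, 2 and 3 in 68.9%, 80.8% and 75.3% of cases (of 5036, 5080 and 4216 regions). In the held-out dexamethasone replicates the shares were 60.8%, 73.3% and 64.6%. Ethanol was higher in 3 of 3 hold-outs, by 8.74 ± 1.66 points (SD, n = 3). The shares of the 2 treatments overlapped (exact two-sided permutation p = 0.2, the smallest possible being 0.1, Benjamini-Hochberg adjusted p = 0.417 over 5 tests). That test ignores that both shares of a hold-out were taken over the same regions. The corresponding test of mirror-like regions below has the same limit. Within the numbered pairs the differences were 8.12, 7.48 and 10.6 points, all larger than their SD. A paired test with 3 pairs cannot go below 0.25, which is the value reached here (exact two-sided sign-flip permutation p = 0.25, adjusted p = 0.417).

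Mirror-like regions, called in both other dexamethasone and 1 of 2 other ethanol libraries, differed by −4.32 ± 6.06 points (SD, n = 3, ethanol minus dexamethasone, exact two-sided permutation p = 0.6, and p = 0.5 by paired sign flips, adjusted p = 0.6 for both). Replicate 3 went against the direction of the other hold-outs here (2.51 points, against −6.46 and −9.02). The difference between member-like and mirror-like regions, both looked up in the same held-out lists, was 13.1 ± 4.4 points and positive in 3 of 3 hold-outs (exact two-sided sign-flip permutation p = 0.25, the smallest possible with 3 hold-outs, adjusted p = 0.417). Lists of one length gave 8.24 points in member-like and −5.26 points in mirror-like regions, with ethanol higher in 3 of 3 and in 0 of 3 hold-outs. Mirror-like regions with a peak in the held-out dexamethasone library were likewise mirror regions by definition. The hold-outs share most of their regions and are not independent of each other.

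Strength in the equally numbered held-out libraries had the same direction, and these values too belong to the classes themselves. A member-like region called by both held-out libraries was a member called in 2 of 3 dexamethasone libraries (2443, 3209 and 2274 regions). There the ethanol peak stood higher in its list by a median of 2.12, 2.69 and 3.85 percentile points in replicates 1, 2 and 3. Mirror-like regions called by both were mirror regions called in 2 of 3 ethanol libraries. In them the same difference had medians of −3.14, −4.05 and −1.89 points. These medians describe the classes and were not tested. Over all 9 combinations of held-out libraries they were positive in 7 for member-like and negative in 8 for mirror-like regions. The exceptions were −0.731 and −0.985 points in member-like regions for ethanol replicate 1 with dexamethasone replicates 2 and 3, and 1.06 points in mirror-like regions for ethanol replicate 3 with dexamethasone replicate 1. For call shares these 9 combinations gave a smaller mean difference of 5.59 points for member-like regions, positive in 7 of 9. It was −6.33 points for ethanol replicate 1 with dexamethasone replicate 2 and −2.93 points for ethanol replicate 1 with dexamethasone replicate 3. The mean for mirror-like regions was then 0.0045 points, negative in 4 of 9. The difference between the classes averaged 5.59 points and was positive in 7 of 9, with −6.07 points for ethanol replicate 1 with dexamethasone replicate 3 and −4.57 points for ethanol replicate 3 with dexamethasone replicate 1.

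**Figure D4:**
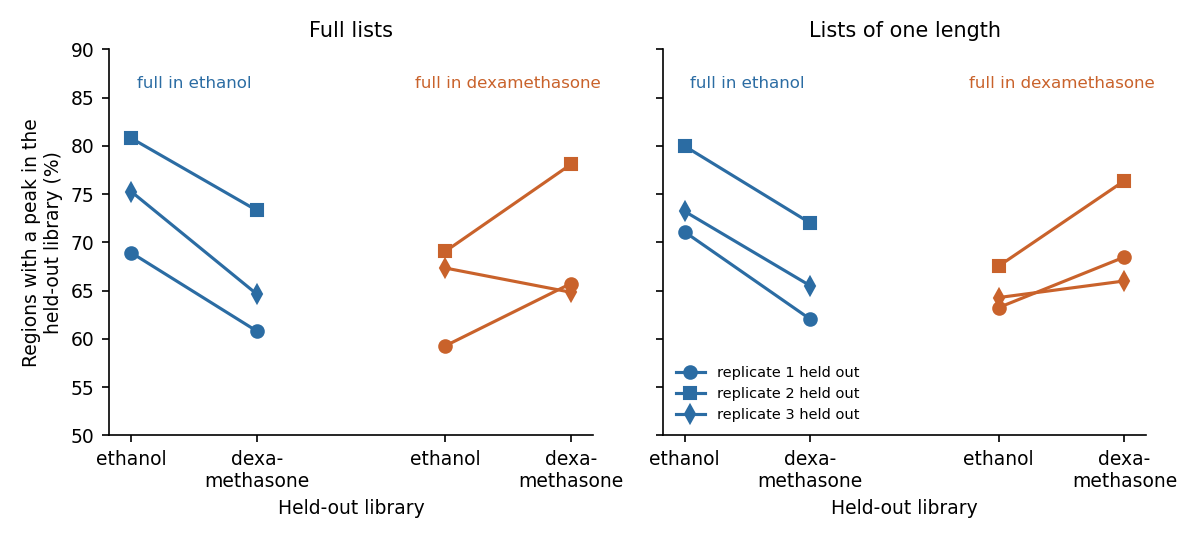
Share of regions with a peak in the held-out library (vertical axis, %, starting at 50), for regions full in the other ethanol libraries (blue) and full in the other dexamethasone libraries (orange), with full lists (left) and lists of one length (right). Lines join equally numbered held-out libraries. All blue lines fall from ethanol to dexamethasone, and 2 of 3 orange lines on the left and 3 of 3 on the right rise.

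In median width and summit position members were close to the whole set. Their median width was 316 bp (5th to 95th percentile 250 to 568 bp). Over all regions the median was 334 bp, with a broader range (5th to 95th percentile 201 to 947 bp). It was 325.5 bp in the mirror class and 482 bp in regions called in all 6 libraries. Width grows with the number of peaks merged, so this order follows in part from the calls. The mean summit of the called dexamethasone peaks lay within 50 bp of the mean ethanol summit in 4717 members (87.8%), with a median offset of 16.9 bp. The offset was 19.6 bp in the mirror class and 10.7 bp in regions called in all 6 libraries. Over all regions with peaks of both treatments it was 13.3 bp, with 88.4% within 50 bp. Only 177 members held several peaks of one library. Where dexamethasone replicate 3 had no peak, its nearest peak was at a median of 7.28 kb, and under 500 bp away in 325 of 2588 members (12.6%). For replicates 1 and 2 the medians were 11.3 and 7.99 kb, with 196 of 2548 (7.69%) and 160 of 1649 (9.70%) under 500 bp. Most missing peaks therefore had no neighbouring peak that merging had separated.

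In their surroundings the members resembled the whole set. Regions called by all 6 libraries were 13.1 kb away at the median. The same distance was 12.6 kb over all regions and 12.3 kb in the mirror class. Members made up between 6.22% and 7.05% of all regions in each of 7 distance bands from under 1 kb to over 50 kb, beside 6.62% of the whole set. Another member lay within 50 kb of 1639 members (30.5%), and another mirror region within 50 kb of 827 mirror regions (23.1%), which is a smaller class. The share of members was 19.9% without dexamethasone replicate 3, which leaves fewer members, and 39.7% without ethanol replicate 1, which leaves more. A region called in dexamethasone alone lay within 50 kb of 351 members (6.53%), of 7.51% of mirror regions and of 6.75% of all regions. Regions called in ethanol alone lay within 50 kb of 3.16% of members and 3.5% of all regions. None of these shares set the members apart by more than 1 point from all regions, other than the neighbour shares of the classes with themselves. Those neighbour shares depend on class size.

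Chromosome 19 stood out in the balance of the classes. It held 251 members and 110 mirror regions, a ratio of 2.28, while the other autosomes and the X chromosome had ratios from 1.23 on chromosome 20 to 1.70 on chromosome 10. Members made up 6.31% of its regions, below the 6.62% of all chromosomes together, whereas the mirror class made up 2.77% against 4.41%. Dexamethasone replicate 3 lacked a peak in 161 of the 251 members (64.1%) and was the single missing library in 125. The peaks of this library on chromosome 19 were 4.94% of its list, the lowest share of the 6, followed by 5.0% in ethanol replicate 3. The other 4 lists had 5.27 to 5.44%. Without both libraries numbered 3 the ratio was 1.09 (150 against 137), and without ethanol replicate 2 and dexamethasone replicate 3 it was 0.948. Without ethanol replicate 1 and dexamethasone replicate 3 it was 1.19. Joint omissions that kept dexamethasone replicate 3 gave ratios from 2.02 to 2.99. With lists of one length the ratio was 2.02. In the mirror regions of this chromosome ethanol replicate 3 lacked a peak most often (53.6%). The part of dexamethasone replicate 3 in the result beyond these values was not tested.

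The missing dexamethasone library also varied over the other chromosomes. Replicate 3 lacked a peak in 61.8% of the 110 members on chromosome 22 and in 57.8% of the 251 on chromosome 17, against 39.0% of the 154 on the X chromosome. Replicate 1 lacked one in 31.1% of members on chromosome 19 and in 61.8% of the 55 on chromosome 21. Replicate 2 was missing in 42.2% on the X chromosome and in 11 of the 55 on chromosome 21. The order of the 3 libraries was therefore not the same on every chromosome.

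**Figure D5:**
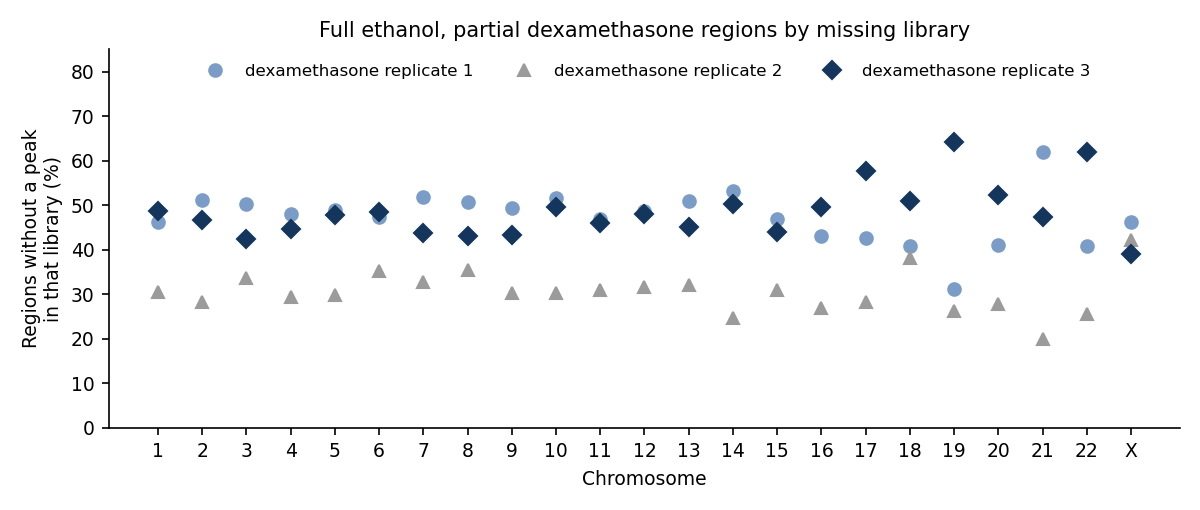
Share of members without a peak in each dexamethasone library (vertical axis, %, members may lack up to 2) by chromosome. Replicate 3 (dark diamonds) reaches 64.1% on chromosome 19 and 61.8% on chromosome 22, where replicate 1 (light circles) is at 31.1% and 40.9%.

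Some members lay in runs. Joining members at most 50 kb apart gave 37 runs of at least 4 and 8 runs of at least 5. The mirror class, which is smaller, had 16 and 4. Run counts rise with class size, so these counts do not show that members lie closer together. The longest run held 9 members among 19 regions over 155 kb at chr19:4576018-4731021, with mean ethanol folds from 4.13 to 7.65. Dexamethasone replicate 3 lacked a peak in 6 of the 9, replicate 1 in 3 and replicate 2 in 2, and another 8 of the 19 regions were called in all 6 libraries. The next run held 6 members among 10 regions over 107 kb at chr2:192351665-192459126, where replicate 1 lacked a peak in 4, replicate 2 in 2 and replicate 3 in 1. At chrX:153430245-153513423, 5 of 6 regions over 83.2 kb were members and none was called in all 6 libraries. Replicates 1 and 2 lacked a peak in 3 of these 5 and replicate 3 in 1. In 5 of the 7 regions at chr13:45890509-45941837 and 5 of the 8 at chr10:71142479-71198778 the rule was also met, with mean ethanol folds from 5.29 to 7.68 and from 4.52 to 6.26. Another 5 members among 9 regions lay at chr12:49897447-49951928 and 5 among 20 at chr17:76921793-77033000. The last run, at chr2:206544751-206671311, had 5 members among 16 regions together with 2 mirror regions and 1 region called in dexamethasone alone. The other 7 runs held neither, and in all 8 the members were not all missing from the same library. Runs were picked by size after the values were seen.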

How the data were processed

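DNase-seq peak lists of 6 A549 libraries (3 dexamethasone, 3 ethanol) were deposited, with positions on hg19. MACS2 2.1.0 is listed in the submitters' processing notes beside CASAVA 1.3, bedtools and Bowtie, and the settings are not given in the sources used here. In the layout MACS2 writes, the deposited ratio gives fold enrichment at a peak's summit, and the deposited p-value and q-value are given as −log10. The deposited score followed 10 times the −log10 q and was not used. Folds and q belong to single lists and were not rescaled between libraries. Classes were compared by calls and by percentile of −log10 q within a list, averaged over the libraries with a peak (the strongest one where a region held several). For named regions the folds of each library are set side by side as a description. Positions count from 1, and distances run between region centres, except gaps to the nearest peak of a library without one.

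Peaks were merged and counted with Python 3.11.15, pandas 2.3.3 and NumPy 2.4.6, and the procedure was tested on simulated data. Tests were exact permutations over libraries. Equal numbers were taken as pairs, because deviations of log2 −log10 q from the group means, over 39934 regions called in all libraries, correlated within each number (0.216, 0.129 and 0.162 for numbers 1 to 3). The labels do not state what a number marks. The pairing therefore rests on these same data, and the paired tests depend on that choice. Named regions were the 10 members called in 1 and the 10 called in 2 dexamethasone libraries highest by mean ethanol percentile, and the 5 mirror regions called in 1 ethanol library highest in dexamethasone. The members, lists and rules were chosen with earlier results of these data known. Motif searches, gene starts and gene lists need hg19 sequence or annotation, which were not used here, so regions are named by position.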

Additional observations from a re-analysis of the deposited data

How the results depend on the processing

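The ratio of members to mirror regions, 1.5, was 1.39 with lists of one length. It was 1.31, 1.27 and 1.34 with the 50000, 40000 and 30000 strongest peaks. Members then numbered 3270, 2464, 1703 and 942 with 40000, 30000, 20000 and 10000 peaks, and the mirror class 1844, 1129 and 622 with the last 3 lengths. These cuts, and the joint omission of libraries, were chosen after seeing the data. Under the replicate block, the counts were 17029 and 14529 and their ratio 1.17. That looser rule needs no full calls, and a peak in a single library can meet it. Its ratio is therefore not like for like with 1.5. Leaving out 1 library, or 1 of each treatment, gave 3173 to 8020 members, 2117 to 5707 mirror regions and ratios from 0.556 to 3.79. Without ethanol replicates 1, 2 or 3 the ratio was 3.79, 2.61 and 2.91, where partial means 1 of 2 ethanol but 1 or 2 of 3 dexamethasone libraries. The ratio was below 1 without dexamethasone replicates 1, 2 or 3 (0.612, 0.886 and 0.556), where the mismatch is the reverse. Neither set of values is like for like. The ratio was also below 1 without ethanol replicate 2 and dexamethasone replicate 3 (0.978), and the cause was not tested. On chromosome 19 it ranged from 0.948, without the same libraries, to 2.99, without ethanol replicate 3 and dexamethasone replicate 2. A −log10 q of at least 5, gaps of 100 bp, a cover of 50% and autosomes alone left counts within 1.5 times. In held-out libraries the mean difference stayed positive in all 3 alternatives for member-like regions (5.59 to 8.46 points) and between classes (5.59 to 13.5 points). For mirror-like regions it went from −4.32 to 0.0045 points with all 9 pairs. Motif and gene start alternatives were not run. Depth is unknown, so near-threshold peaks cannot be weighed by reads.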
